A study of Mus musculus with 9 samples.

Results

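This report covers the membrane-anchored serine proteases matriptase (*St14*), *Tmprss2* and prostasin (*Prss8*) together with the protease inhibitors *Spint1*, *Spint2* and *Spink1* in 3 mouse cell lines that resemble extra-embryonic endoderm (ExEn). The members were taken as all probes whose annotated gene symbol is one of these 6 genes. They make up 6 of the 19057 genes named on the array and 11 of its 45281 probes. Of the 3 inhibitors, *Spint1* and *Spint2* encode Kunitz-type proteins, while *Spink1* encodes a Kazal-type protein, so that the label of Kunitz inhibitors holds for *Spint1* and *Spint2* only.

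RNA was prepared from each line and measured on 9 Illumina mouse expression arrays, 3 a line (END2, PYS2 and XEN), to compare endoderm-like lines that are studied for their ability to induce heart tissue. END2 cells come from P19 embryonal carcinoma cells and were grown in DMEM/F12. PYS2 cells trace back to tumor cells of 129 mice, whereas the XEN line was made from ICR blastocysts for the study. Both were kept in high glucose DMEM, so that for END2 the medium cannot be told apart from the line. The labels name no transgene and no treatment, each group is a single line, and nothing states that the 3 samples of a line are separate cultures, so that the p-values rest on a spread that may be purely technical.

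Matriptase, prostasin and TMPRSS2 are trypsin-like proteases held at the surface of epithelial cells, TMPRSS2 and matriptase by a membrane-spanning segment and prostasin by a lipid anchor. They cut zymogens, receptors, adhesion proteins and subunits of the epithelial sodium channel, and matriptase and prostasin can activate each other. The inhibitors HAI-1 (encoded by *Spint1*) and HAI-2 (encoded by *Spint2*) are themselves membrane proteins that block matriptase and related proteases through Kunitz domains, and in the mouse *Spint1* is needed for the placenta to form. SPINK1 is a small secreted inhibitor known for blocking trypsin in the pancreas, and its mouse gene was long called *Spink3* and is used as a marker of endoderm.

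The values are scanner signals, that is, fluorescence intensities on a linear scale. A probe was taken as detected at a detection p-value under 0.01, and a gene as present in a line once 2 or 3 of its arrays detected the same probe. Levels are log2 intensities after background correction and quantile normalization, and they were compared with limma over 16299 probes with an adjusted p-value under 0.05 as threshold. Between 13051 and 14940 probes were detected per array. XEN replicate 2 had a higher median signal than the other XEN arrays (43.5 against 21.3 and 24), and END2 replicate 3 lay farther from the other END2 arrays (Euclidean distance over the tested probes 72.1 and 78.5) than those lay from each other (35.0). END2 cells had 8 of 13 ExEn markers present, PYS2 cells 12 and XEN cells 13, and *Sox7*, *Sox17*, *Hnf4a*, *Lama1* and *Thbd* were detected on no END2 array. These counts rest on the arrays alone and were not adjusted for other assays. The study reported array signal for *Gata4* in END2 cells, where its qRT-PCR and immunocytochemistry found no expression. By its qRT-PCR, END2 cells expressed *Gata6* but no other primitive endoderm marker tested, and *FoxA2* was found in PYS2 cells only. Of 9 fibroblast markers, 5 were present in END2 and 0 in PYS2 and XEN cells.

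The sequences just upstream of *Spint1* and *Tmprss2* are shown because these genes had opposite orders among the lines, END2 above XEN above PYS2 for *Spint1* and PYS2 above XEN above END2 for *Tmprss2*. Each is the 250 bases before the RefSeq start of the gene in GRCm38.p6, read 5′ to 3′ on the strand of the gene, from chr2:119237110-119237359 (plus strand) for *Spint1* and from chr16:97611196-97611445 (minus strand) for *Tmprss2*. RefSeq promoter entries matched 3 of the 6 members, of which *Spint2* is the third. Capitals mark GGGCGG, the box read by Sp1-like factors, on either strand.
Spint1: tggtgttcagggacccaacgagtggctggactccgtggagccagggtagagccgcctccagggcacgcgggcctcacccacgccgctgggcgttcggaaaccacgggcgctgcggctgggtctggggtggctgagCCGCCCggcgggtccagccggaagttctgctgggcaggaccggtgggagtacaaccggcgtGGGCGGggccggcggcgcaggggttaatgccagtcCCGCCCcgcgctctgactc
Tmprss2: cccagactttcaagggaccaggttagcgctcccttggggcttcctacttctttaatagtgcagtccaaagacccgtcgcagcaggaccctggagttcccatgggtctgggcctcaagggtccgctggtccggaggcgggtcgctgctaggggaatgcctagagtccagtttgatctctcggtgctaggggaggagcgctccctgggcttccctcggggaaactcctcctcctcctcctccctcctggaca
The box GGGCGG was found 3 times before *Spint1*, starting at bases -115, -54 and -19 from the start of the gene, and 0 times before *Tmprss2*. It occurred in 32.7% of 32851 mouse promoters of the same length. CAGGTG, the E-box read by Snail and Zeb factors, and AGATAA, the site of factors such as GATA4, were searched on both strands too and occurred in 17.2% and 9.99% of those promoters. Neither was found before *Spint1* or *Tmprss2*. In the same window before *Spint2*, which was present in no line, CAGGTG was found 3 times (from bases -74, -55 and -9), GGGCGG 3 times (from bases -124, -83 and -18) and AGATAA 0 times. No motif overlapped another. These matches describe letters in the window only, and no binding was measured.

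The set of proteases and inhibitors present differed from line to line. In END2 cells 2 of the 6 genes were present (*Spint1* and *Prss8*), where 44.2% of all named genes were. PYS2 cells had 3 (*Tmprss2*, *Prss8* and *Spink1*) and XEN cells 5 (all but *Spint2*), where 41.5% of named genes were present in each of these lines. *Prss8* was thus the member present in all 3 lines, and *Spint2* was present in none. XEN cells were the line in which matriptase and its inhibitor HAI-1 were both present at the RNA level.

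**Figure D1:**
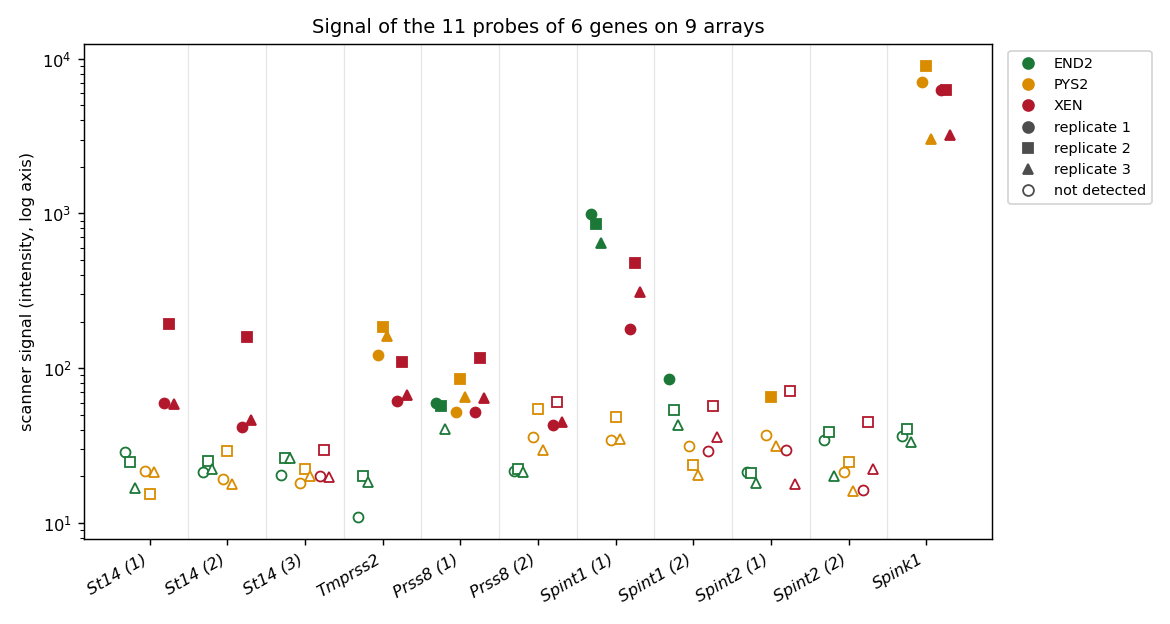
Scanner signal (log axis) of the 11 probes of the 6 genes on each of 9 arrays, by line (color) and replicate (shape), with open symbols where the probe was not detected and probes of a gene numbered from the brightest. *Spint1* (1) was high in END2 cells (646.5 to 995.7), *Spink1* in PYS2 and XEN cells (3027.8 to 8900.6), and *St14* (1) was detected in XEN cells only.

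Of the 6 genes, 5 had a probe detected well enough to be tested, and the test of *Spint2* is missing for this reason. Between END2 and PYS2 cells 4 of these 5 genes passed the threshold, against 55.3% of all 9354 genes tested. *Spint1* was higher in END2 (26.4% of all genes were), and *Tmprss2*, *Prss8* and *Spink1* were lower (28.8%). Between END2 and XEN cells 5 of 5 passed, against 54.2% of all genes, with *Spint1* higher in END2 (27.5%) and the other 4 genes lower (26.7%). Between PYS2 and XEN cells 3 passed, against 39.6%, with *Tmprss2* higher in PYS2 (21.2%) and *St14* and *Spint1* lower (18.4%). The median log2 difference of the 5 genes was -0.74 in END2 minus PYS2, -1.87 in END2 minus XEN and -0.10 in PYS2 minus XEN, beside -0.03, -0.02 and 0.02 over all genes. The levels of the 2 lines did not overlap for 4, 5 and 3 of the 5 genes in these comparisons, against 61%, 62.4% and 54.1% of all genes, and over probes in place of genes 53%, 51.8% and 36.9% passed. The comparisons share arrays of each line, so that they are not independent of each other. A gene detected in 1 line alone enters the test through that line, so that these counts are a description and no test of the group.

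**Figure D2:**
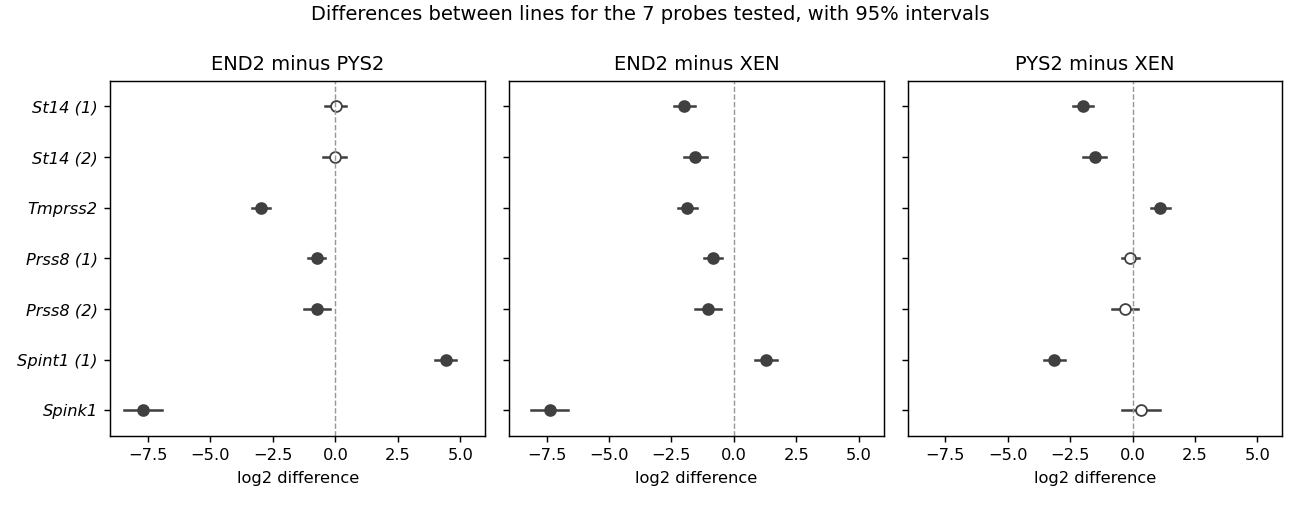
Log2 difference between lines (points) with its 95% interval (bars) for the 7 member probes tested, filled where the adjusted p-value from limma was under 0.05. In END2 minus PYS2, *Spint1* lay at 4.41 and *Spink1* at -7.71, and in PYS2 minus XEN the intervals of *Prss8* and *Spink1* included 0.

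*St14*, the gene of matriptase, was detected in XEN cells alone. In RNA of whole cultures, fewer cells with a transcript and less of it per cell cannot be told apart. The brightest of its 3 probes (ILMN_2624209) gave signals of 60, 192.3 and 59.1 on the XEN arrays, 28.9, 24.6 and 16.7 on the END2 arrays and 21.8, 15.3 and 21.3 on the PYS2 arrays. All 3 XEN signals lay above every END2 and PYS2 signal, replicate 2 stood highest, and the END2 and PYS2 signals overlapped. The same replicate was highest after normalization (6.82 against 6.38 and 6.21 on the log2 scale). Without it the log2 difference was -1.74 in END2 minus XEN (limma, adjusted p = 2.14e-05) and -1.75 in PYS2 minus XEN (adjusted p = 4.79e-05).

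Because no END2 or PYS2 array detected *St14*, the difference has only a lower bound. The level was 6.47 ± 0.32 in XEN cells (SD, n = 3), against 4.49 ± 0.11 in END2 and 4.48 ± 0.12 in PYS2 cells. XEN cells were at least 2.20-fold higher than END2 (limma, adjusted p = 3.56e-06) and at least 1.86-fold higher than PYS2 (adjusted p = 7.95e-06). A bound of this kind sets the mean of the bright line against the lowest signal detected on each array of the dim line, or against the probe itself where that was higher, on normalized log2 values. It allows for the detection limit only and not for the spread between arrays, so that it is no confidence limit. END2 and PYS2 cells, both undetected, differed by 0.01 with a 95% interval of -0.40 to 0.42.

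A second *St14* probe (ILMN_1255342) gave 41.9, 158.5 and 46.3 on the XEN arrays, and between 17.8 and 29.1 on the other 6 arrays, where it was not detected. Its XEN level was at least 1.61-fold above END2 (adjusted p = 7.00e-05) and at least 1.37-fold above PYS2 (adjusted p = 0.000154). The third probe (ILMN_2583891) was detected on none of the 9 arrays, with signals from 18 to 29.8. The probes of *St14* thus disagree in XEN cells. The annotation of the third probe cites another transcript than that of the others, and its part in this was not tested.

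*Tmprss2*, a transmembrane protease of epithelia, was detected in PYS2 and XEN cells and not in END2 cells. Its single probe gave 120.9, 183.6 and 162 on the PYS2 arrays, 61.6, 108.9 and 66.9 on the XEN arrays, and 11, 20 and 18.4 on the END2 arrays. The 3 lines did not overlap, with PYS2 above XEN and XEN above END2. PYS2 cells were 2.15-fold above XEN cells (log2 difference 1.10, SE 0.17, adjusted p = 0.000446), the XEN replicates being at 6.42, 5.92 and 6.41 on the log2 scale. The XEN array with the highest *Tmprss2* signal, replicate 2, thus had the lowest level after normalization, and without it the difference was 0.93 (adjusted p = 0.00195). Against END2, PYS2 cells were at least 4.05-fold higher (adjusted p = 4.83e-08) and XEN cells at least 1.89-fold higher (adjusted p = 3.24e-06).

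*Prss8*, the gene of prostasin, was close to the detection limit in all 3 lines and lower in END2 cells. Its brighter probe (ILMN_2846148) gave 59.9, 56.6 and 40.3 on the END2 arrays, the last not detected. The signals were 52.2, 84.9 and 64.8 on the PYS2 arrays and 51.8, 115.5 and 64.2 on the XEN arrays, all detected. The scanner signals of the lines overlapped, while the normalized levels of END2 (5.33 ± 0.11) lay below all of those of PYS2 (6.07 ± 0.07) and XEN (6.17 ± 0.16, SD, n = 3). END2 cells were 1.67-fold below PYS2 (log2 difference -0.74, SE 0.16, adjusted p = 0.00196) and 1.79-fold below XEN (-0.84, SE 0.16, adjusted p = 0.000841). PYS2 and XEN cells were not told apart, with a difference of -0.10 and a 95% interval of -0.44 to 0.24 (adjusted p = 0.672). Without normalization between arrays both END2 differences missed the threshold (-0.46, adjusted p = 0.373, and -0.58, adjusted p = 0.249).

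The other *Prss8* probe (ILMN_2740965) was detected on 2 XEN arrays and on no END2 or PYS2 array, with signals of 42.8, 60.8 and 45 in XEN, 36, 54.2 and 29.5 in PYS2 and 21.5, 22.4 and 21.4 in END2 cells. XEN cells were at least 1.12-fold above END2 (adjusted p = 0.00333). Its PYS2 and XEN levels overlapped and differed by -0.32, with a 95% interval of -0.84 to 0.21.

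Among the inhibitors, *Spint1* separated the lines in an order that differed from that of each protease. Its brighter probe (ILMN_1237186) gave 995.7, 852.6 and 646.5 on the END2 arrays, 180.3, 477.9 and 309.3 on the XEN arrays, and 34.6, 48.7 and 34.9 on the PYS2 arrays, where it was not detected. No line overlapped another. The log2 levels were 9.58 ± 0.17 in END2, 8.30 ± 0.34 in XEN and 5.17 ± 0.12 in PYS2 cells (SD, n = 3). END2 cells were 2.44-fold above XEN cells (log2 difference 1.29, SE 0.19, adjusted p = 0.000186) and at least 16.1-fold above PYS2 cells (adjusted p = 4.28e-09). XEN cells were at least 6.62-fold above PYS2 cells (adjusted p = 2.92e-07).

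In PYS2 cells the detection p-values of this probe were 0.0363, 0.0278 and 0.0673, so that *Spint1* would count as present there at a looser threshold of 0.05. The dimmer *Spint1* probe (ILMN_2621463) was detected on END2 replicate 1 alone, with signals of 85.3, 53.4 and 43 in END2, 29.2, 56.9 and 35.7 in XEN and 31.5, 23.7 and 20.5 in PYS2 cells, and it was not tested. Its scanner signals were lowest in PYS2 cells on average, as for the brighter probe. On the log2 scale its END2 levels lay above those of both other lines, and its PYS2 and XEN levels overlapped, whereas its scanner signals in END2 and XEN overlapped. *Spint1* was the member higher in END2 than in both other lines, and the fibroblast markers were as well: their summed linear level over 9 genes ranged from 6970 to 13500 in END2 cells, against 203 to 210 in PYS2 and 200 to 215 in XEN cells. *Col1a1*, *Col1a2*, *Col3a1*, *Thy1* and *Dcn* were present in END2 and *Postn*, *Lum*, *Twist2* and *Pdgfrb* were detected on no array. Their part in the *Spint1* result was not tested.

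*Spint2* was not present in any line. The brighter of its 2 probes (ILMN_2645845) gave 37.1, 65.4 and 31.4 on the PYS2 arrays, 29.5, 70.9 and 17.9 on the XEN arrays and 21.4, 20.9 and 18 on the END2 arrays. PYS2 replicate 2 was the single array that detected it, although a XEN array gave a higher signal. At a detection p-value under 0.05 the probe was detected on 2 PYS2, 2 XEN and 0 END2 arrays. The other probe (ILMN_2663338) was detected on none, with signals from 16.1 to 45.1. Whether *Spint2* was expressed below the detection limit cannot be read from these arrays.

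*Spink1* had the largest difference between lines of the 5 genes tested. Its single probe gave 7107.7, 8900.6 and 3027.8 on the PYS2 arrays, 6304.8, 6250.4 and 3196.3 on the XEN arrays, and 36.5, 40.6 and 33.5 on the END2 arrays, where it was not detected. The PYS2 and XEN arrays overlapped, and replicate 3 was the lowest in both lines. PYS2 cells were at least 151-fold above END2 (adjusted p = 4.41e-09) and XEN cells at least 120-fold above END2 (adjusted p = 8.34e-09). PYS2 (12.57 ± 0.75) and XEN (12.24 ± 0.51, SD, n = 3) differed by 0.33 on the log2 scale, with a 95% interval of -0.42 to 1.08 (adjusted p = 0.497), an interval that includes differences in either direction. *Sox17* and *Hnf4a* of the ExEn list had the same pattern, undetected on all END2 arrays and detected on all PYS2 and XEN arrays. From its arrays the study counted *Sox17* and *Spink3*, the older name of *Spink1*, among the pan-endodermal markers. Here neither was detected in END2 cells. Most of the ExEn list did not share this pattern of detection, as 8 of the 13 ExEn markers were present in END2 cells on the arrays. In level, 13 of the 13 were lower in END2 than XEN (26.7% of all genes were). Against PYS2, 11 were lower in END2 (28.8%) and 1 was higher (26.4%). The summed linear level of the 13 ExEn markers was 19400 to 27100 in END2 cells and higher in PYS2 (59400 to 71300) and XEN cells (62900 to 90300), and its part in the *Spink1* result was not tested.

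The beads of the *Spink1* probe on PYS2 replicate 3 disagreed with each other. An Illumina array reads each probe on many beads, and the SD between the 27 beads of this probe was 2660 for a signal of 3027.8, or 87.8% of the signal. On the other 5 arrays that detected *Spink1* the bead SD was 17.3 to 22.0% of the signal. Of the 2726 probes with a signal over 1000 on PYS2 replicate 3, 94.5% had a smaller bead SD in percent, and their median was 30.3%, the highest of the 9 arrays (19.0 to 30.3%). Without this array PYS2 cells exceeded XEN cells by 0.77 on the log2 scale (adjusted p = 0.0532), and the difference of END2 minus PYS2 was -8.15.

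**Figure D3:**
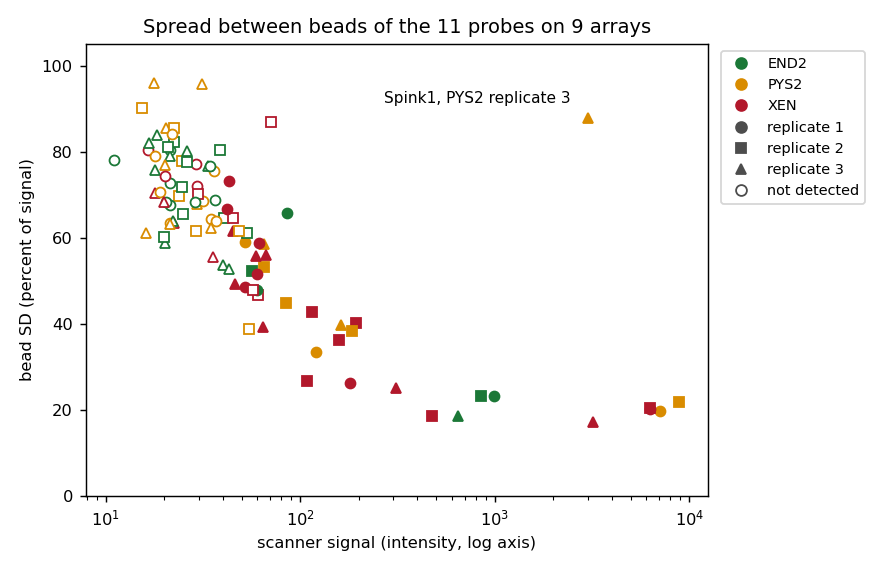
Bead SD as a percent of the signal (vertical axis) against the scanner signal (horizontal log axis) of the 11 probes on 9 arrays, by line and replicate, with open symbols where not detected. The spread falls as the signal grows, to 17.3 to 22.0% for *Spink1* on 5 arrays, while *Spink1* on PYS2 replicate 3 stands apart at 87.8%.

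For *Tmprss2* the bead SD was 33.4 to 39.6% of the signal in PYS2 and 26.7 to 58.7% in XEN cells, and for *St14* (ILMN_2624209) 40.3 to 55.8% in XEN cells. *Spint1* (ILMN_1237186), which was brighter, had 18.5 to 23.2% in END2 and 18.7 to 26.3% in XEN cells. Each probe was read on 21 to 62 beads.

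On the authors' own normalized values, every call of the 5 genes stayed, and the differences were smaller for all that passed. *Tmprss2* had a log2 difference of -1.08 in END2 minus PYS2, -0.59 in END2 minus XEN and 0.49 in PYS2 minus XEN. *St14* had -0.60 in END2 minus XEN and -0.61 in PYS2 minus XEN. *Prss8* had -0.21 (adjusted p = 0.0232) in END2 minus PYS2 and -0.25 (adjusted p = 0.0116) in END2 minus XEN. *Spint1* had 2.38 in END2 minus PYS2, 0.98 in END2 minus XEN and -1.39 in PYS2 minus XEN, and *Spink1* had -5.33 and -4.98 in the comparisons with END2. The calls had the same direction on both sets of values. The cause of the smaller sizes was not tested.

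Other membrane-anchored serine proteases were nearly all undetected. Of 21 further genes with a probe (the hepsin, TMPRSS and testisin-like families), *Prss41* alone was tested. It was detected on 2 PYS2 arrays and was at least 1.31-fold above END2 (adjusted p = 1.88e-05) and at least 1.15-fold above XEN (adjusted p = 5.07e-05). *Tmprss6* was detected on 1 XEN array and *Tmprss12* on 1 PYS2 array.

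Of 13 substrates and receptors of these proteases with a probe, 3 were tested. *Plau*, which encodes the zymogen of urokinase and can be activated by matriptase, was detected in END2 cells only, where it was at least 2.21-fold above PYS2 (adjusted p = 1.16e-05) and at least 2.29-fold above XEN (adjusted p = 2.67e-05). The study's own qRT-PCR gave the opposite order for this gene (uPA), expressed in all 3 lines and lower in END2. The array result rests on a single probe here, and the cause of the conflict was not tested. *Met*, the receptor of hepatocyte growth factor, was detected on 2 END2 arrays and no other, at least 1.67-fold above PYS2 (adjusted p = 0.000831) and at least 1.73-fold above XEN (adjusted p = 0.000751). *Plaur*, the receptor of urokinase, was present in all 3 lines and highest in XEN cells, 3.89-fold above PYS2 (adjusted p = 0.00182) and 2.01-fold above END2 (adjusted p = 0.043, with overlapping arrays). By the brightest probe of each, *Epcam* and *Hgf* were detected on none of the 9 arrays and *Cldn7* on 1 PYS2 array. *Scnn1a*, a subunit of the epithelial sodium channel, was detected on 1 PYS2 and 1 XEN array. On the arrays *Plau* and *Met* were higher in END2 cells as the fibroblast markers were, and the part of those markers was not tested. *F2rl1*, the receptor PAR2, could not be read here, as no probe carried it as its single annotated gene symbol.

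The other inhibitors of trypsin-like proteases fell into no single order. Of 12 further genes with Kunitz domains on the array 6 were tested. In END2 minus PYS2, 2 were higher and 3 lower, against 26.4% and 28.8% of all genes. In END2 minus XEN, 2 were higher and 1 lower, against 27.5% and 26.7%. In PYS2 minus XEN, 2 were higher and 2 lower, against 21.2% and 18.4%. *Tfpi*, the inhibitor of the tissue factor pathway, was lowest in END2 (5.49 ± 0.11 on the log2 scale), intermediate in PYS2 (7.37 ± 0.01) and highest in XEN cells (9.63 ± 0.03), a 17.6-fold difference between END2 and XEN (adjusted p = 9.05e-10). *Ambp* (bikunin) was detected in PYS2 cells only, at least 2.04-fold above END2 (adjusted p = 2.14e-06) and at least 1.78-fold above XEN (adjusted p = 7.80e-06). *Col7a1*, a collagen with a Kunitz domain, was detected in END2 cells only, at least 1.66-fold above PYS2 (adjusted p = 0.0363, with overlapping arrays) and at least 1.72-fold above XEN (adjusted p = 0.0263). These bounds leave out the spread, which was wide for *Col7a1* in END2 cells (log2 level 6.31 ± 1.09). The log2 differences were 1.12 from PYS2 and 1.21 from XEN, each with an SE of 0.41. *App* and *Aplp2* were present in every line, and *App* was 1.63-fold lower in PYS2 than XEN (adjusted p = 0.0196). *Aplp2* was lowest in XEN, 1.94-fold below END2 (adjusted p = 0.0111) and 1.86-fold below PYS2 (adjusted p = 0.022). *Wfikkn1*, also present in every line, was 1.85-fold lower in END2 than PYS2 (adjusted p = 0.00598).

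Of 9 further genes with Kazal domains, *Reck* alone was present, in all 3 lines and lower in END2 than in PYS2 (1.56-fold, adjusted p = 0.011) and XEN (1.65-fold, adjusted p = 0.0059). The 12 pancreatic proteases on the array include the trypsins that SPINK1 is known to block. By the brightest probe of each, they were detected on no array of any line. Of 8 serpins of trypsin-like proteases 3 were tested, and *Serping1*, *Serpinf2* and *Serpinb6a* were lower in END2 than PYS2 (28.8% of all genes were). Against XEN, 1 was lower in END2 (26.7% of all genes were). The 2 others did not pass, *Serpinf2* (log2 difference -0.01, adjusted p = 0.987) and *Serpinb6a* (-0.09, adjusted p = 0.716). *Serping1*, the inhibitor of complement C1, was 6.52-fold lower in END2 than PYS2 (adjusted p = 3.85e-05) and 12.4-fold lower than XEN (adjusted p = 3.64e-06).

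**Figure D4:**
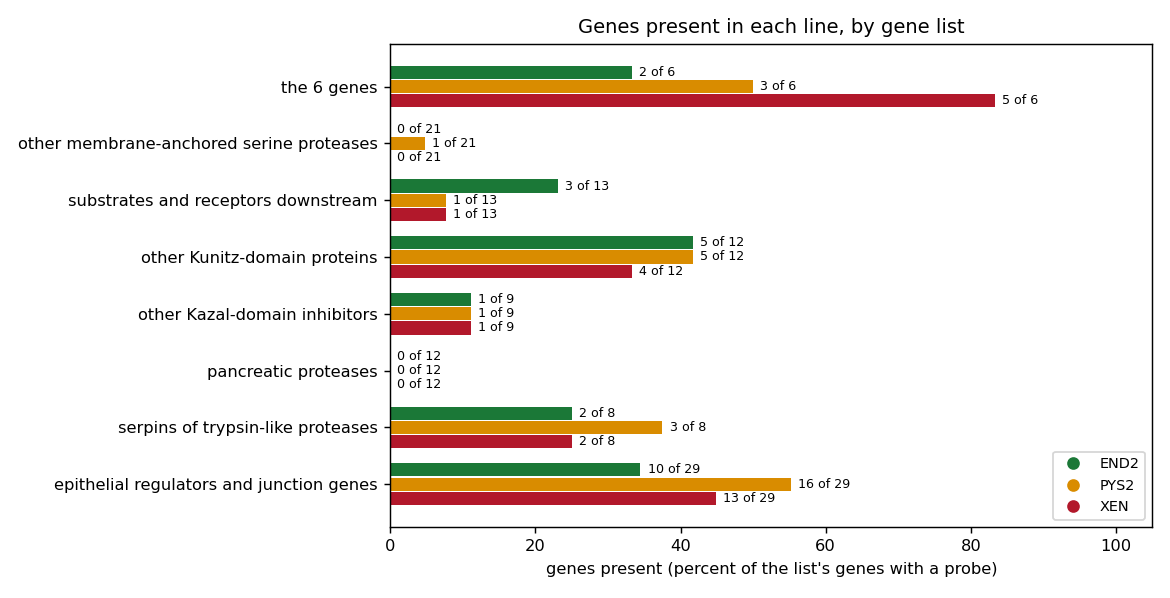
Percent of the genes of each list with a probe that were present (bars), by line, with the counts beside each bar. Of the 6 genes, 5 were present in XEN cells, while 0 to 1 of 21 other membrane-anchored proteases and 0 of 12 pancreatic proteases were present in each line.

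Genes of epithelial cells, in which matriptase, prostasin and HAI-1 are usually found together, were described by the same counts. Of 29 such genes on the array 17 were tested. In END2 minus PYS2, 3 were higher and 11 lower, against 26.4% and 28.8% of all genes, with a median log2 difference of -1.46. In END2 minus XEN, 3 were higher and 10 lower, against 27.5% and 26.7%, with a median of -1.08. In PYS2 minus XEN, 7 were higher and 3 lower, against 21.2% and 18.4%, with a median of 0.38, and the medians over all genes were -0.03, -0.02 and 0.02. *Cldn6*, a tight junction protein, was not detected in END2 cells, where it was at least 75.4-fold lower than in XEN (adjusted p = 9.59e-10), and it was high in PYS2 too. *Cdh1* (E-cadherin) and *Elf3* were not detected in END2 cells and were higher in PYS2 than XEN, by 6.34-fold (adjusted p = 4.65e-06) and 7.26-fold (adjusted p = 2.04e-06). *Klf5* was 22.3-fold lower in END2 than XEN (adjusted p = 8.05e-08). *Ocln* was detected in PYS2 cells only, at least 2.44-fold above XEN (adjusted p = 6.62e-06). On the arrays *Krt19* had the order END2, PYS2, XEN, with log2 levels of 9.83 ± 0.13, 6.87 ± 0.32 and 4.52 ± 0.11. These levels rest on a single probe, which was detected on no XEN array. The study's own qRT-PCR found *Krt19* in all of the lines, with a relatively lower level in END2 cells. The cause of this conflict was not tested.

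The genes whose pattern over the 9 arrays lay nearest to each member were found from the root mean square (RMS) difference of log2 levels, each gene centered on its own mean. *St14* lay nearest to *D17H6S56E-5*, *Rhox6* and *1700030C10Rik* (RMS 0.15, 0.15 and 0.18), which like it were high in XEN cells. For *Tmprss2* the nearest were *Osbp*, *Hdac6* and *Rhpn1* (0.20, 0.20 and 0.21), and for *Prss8* *Oxnad1*, *Idnk* and *Hmgn2* (0.09, 0.10 and 0.10). *Spint1* was followed by *Dzip1l*, *Nectin3* and *Acsl5* (0.28, 0.31 and 0.32). *Spink1* lay nearest to *Sall4*, *Ctsh* and *Sox17* (0.48, 0.49 and 0.51). The last, *Sox17*, is on the ExEn list used here, while the study called it a definitive or pan-endoderm marker. Its log2 level was 4.52 in END2, against 12.24 in PYS2 and 11.66 in XEN cells. These distances are over 9 arrays of 3 lines that share the same extremes, and they carry no test.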

How the data were processed

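Signals of 9 Illumina mouse bead arrays, 3 for each of END2, PYS2 and XEN cells, were used. The deposited scanner table, read with Illumina BeadStudio by the authors, holds for each probe an intensity on a linear scale that is not normalized between arrays, the SD between beads, the count of beads, and a detection score that the authors deposited as a fraction from 0 to 1. One minus that score was used as the detection p-value. The sources used here do not say whether a background had been subtracted. The authors' normalized values, made with lumiExpresso from the lumi package (no version is stated) and deposited on a log2 scale, were used as an alternative. A further 24 columns carry no sample of this series and were left out.

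Background correction and quantile normalization used the neqc function of limma 3.58.1 (offset 16, R 4.3.3) on detection p-values in place of negative controls. Probes took their gene from the platform annotation, in which 34885 of 45281 had 1 symbol, 18 several and 10378 none. Probes detected on at least 2 of 3 arrays of a line were tested, 16299 probes of 9354 genes, in 1 limma model over the 9 arrays with no replicate block, and p-values were adjusted over all of them by Benjamini-Hochberg, with a threshold of 0.05. The script was tested on simulated data. Where several probes of a gene were tested the brightest stood for it. The others are given by themselves for the members only. For the other genes, differences and the arrays that detected them rest on 1 probe, the brightest tested. Where no probe of such a gene was tested, the brightest on the array was used. Arrays have no sequencing depth, and their number limits the precision. The alternatives were the authors' values, other background corrections, normalizations and filters, other models of the spread, the mean of a gene's probes, the replicate block, and each array left out in turn.

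The members and the gene lists were chosen with earlier results of these data known. All 6 members are named with every probe. From each list the text names up to 4 genes with the largest difference among those that passed in a comparison, and the undetected genes on which a member acts directly. The 3 genes nearest to each member are named too. *Tmprss6*, *Tmprss12* and the marker genes were added with their values known.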

Additional observations from a re-analysis of the deposited data

How the results depend on the processing

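Every call of *St14*, *Tmprss2*, *Spint1* and *Spink1* kept its direction and its side of the threshold under all alternatives, including each array left out in turn. The difference of *St14* in END2 minus PYS2, which was not called, changed sign (-0.09 to 0.14). *Prss8* lost both calls without normalization between arrays, at -0.46 in END2 minus PYS2 (adjusted p = 0.373) and -0.58 in END2 minus XEN (adjusted p = 0.249). That setting lowered the probes called from 8631 to 5056 in END2 minus PYS2, from 8448 to 4913 in END2 minus XEN and from 6016 to 2386 in PYS2 minus XEN. It moved the median of all tested probes from -0.02 to 0.18 and from -0.02 to 0.14 in the comparisons with END2, and the share of calls higher in END2 from 48.8 to 62.9% and from 49.6 to 60.9%. The cause was not tested. When all 3 arrays had to detect a probe, 1 member was present in END2 cells in place of 2, because END2 replicate 3 did not detect *Prss8*. At a detection p-value under 0.05, 5 members were present in PYS2 cells in place of 3, and 6 in XEN cells in place of 5. Leaving out 1 array at a time moved the log2 difference of *Spink1* in PYS2 minus XEN between 0.10 and 0.77, with the highest value without PYS2 replicate 3.

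Same-numbered arrays of different lines did not deviate from their line means together more than others did (r from -0.28 to 0.31, against -0.29 to 0.30 for other numbers). So few arrays cannot settle whether the numbers pair the samples, and the labels do not say. With the replicate block 8529 probes passed in END2 minus PYS2, 8346 in END2 minus XEN and 5857 in PYS2 minus XEN, and the calls of the members did not change. Probes near the detection limit, such as those of *Prss8* and *Spint2*, are limited by signal over background.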
